A study of Mus musculus with 10 samples.

Results

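The 35 genes described here encode proteins of homologous recombination, of the Fanconi anaemia pathway and of the checkpoint that works with both. They were taken by name from the 46517 genes of each deposited table. The list was chosen with earlier results of these data known. All 35 were found, and all 35 had enough reads to be tested. The libraries came from 5 mouse allograft models of malignant peripheral nerve sheath tumour (MPNST), a soft tissue cancer of Schwann lineage cells, lettered A to E. From each model, tumour cells were sorted by flow cytometry into a GFP+ and a GFP- population, and 1 RNA library was made of each, which gives 5 libraries a population and 2 a model. Per the series title, the groups are tumour cells that express the CGD transgene and tumour cells that do not, and GFP+ and GFP- are the labels' names for the sorted populations. Both populations share the allograft, the dissociation with collagenase and the gate that removed dead cells and wild-type host cells. The genotype of the tumours, the host strain, its age and the meaning of CGD are not given in the sources, and neither is whether 1 model means 1 animal. The design text states a paired comparison of the populations. The p-values measure the spread of the within-model differences over 5 models.

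Homologous recombination repairs a broken chromosome by copying the sister chromatid. BRCA1, PALB2 and BRCA2 prepare resected DNA for this step, and further proteins help the strands to pair. The Fanconi pathway removes crosslinks between DNA strands, through a core complex that attaches ubiquitin to FANCD2 and FANCI. Many of these genes are transcribed most in cells that replicate their DNA, so their level in a tumour is commonly read beside markers of the cell cycle. MPNST are tumours of dividing cells and often arise after loss of the NF1 tumour suppressor.

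The libraries held 15978673 to 22082207 reads in genes. Each member had between 17 and 3347 reads in a library. Levels below are CPM, the reads of a gene scaled to a common total of reads in genes, and are given for models A, B, C, D and E in that order. Gene positions are those of GENCODE vM21 on mm10 and span exons, introns and untranslated regions. Of the 12 markers of Schwann cells and MPNST, Twist1 (91.6 to 192 CPM), Sox9 (33.1 to 123 CPM) and Prrx1 (555 to 1086 CPM) were present in every library. S100b did not pass 2.93 CPM. Sox10, a defining gene of the Schwann lineage, stood at 0.111, 17.1, 52.6, 112 and 0.434 CPM in GFP+ and at 0.0514, 1.63, 7.65, 3.69 and 0 CPM in GFP- libraries, so that it was all but absent from models A and E and higher in the GFP+ library of every pair (fitted log2 difference 3.61, SE 0.40; adjusted p = 0.179 by edgeR). Of the 11 tested markers of that list, 9 were fitted higher in GFP+ cells, 7 of them at an unadjusted p under 0.05, and 1 was lower at that level. Their median log2 difference was 1.38, and their mean was 0.09, 1.15, 0.93, 2.01 and 0.62 in pairs A to E. The 12 leukocyte markers summed to 9.18 to 17.7 CPM in GFP+ and 7.93 to 22.4 CPM in GFP- libraries, with the pan-leukocyte gene Ptprc at no more than 0.453 CPM. Endothelial markers (8 genes) summed to 4.15 to 14.2 and 3.74 to 13.9 CPM. Muscle and mural cell markers (8 genes) summed to 2.99 to 20.2 CPM in GFP+ and 3.25 to 92.6 CPM in GFP- libraries, with the highest sum in GFP- D. All 6 tested genes of that list were fitted lower in GFP+ cells, 3 at an unadjusted p under 0.05, with a median log2 difference of -1.31 and pair means of -1.48, -0.70, -0.65, -2.74 and 0.63. Of the erythroid markers, Hba-a2, Hbb-bt and Alas2 were at 0 in all 10 libraries. The part of these markers in the results below was not tested. In sorted bulk samples, fewer cells that express a gene and less RNA of it per cell cannot be told apart.

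No member passed the test between the populations, but most had higher values in GFP+ cells, and the size of the difference varied from model to model. Across all 15282 tested genes, edgeR's quasi-likelihood test with the model as a block called 0% (adjusted p under 0.05), and 1396 genes were below 0.05 before adjustment. The members' adjusted p ran from 0.335 to 0.998. The fitted log2 difference, GFP+ minus GFP-, was above 0 for 28 of the 35 members (80%) and below 0 for 7, where 49.4% of all tested genes were above 0. Its median was 0.36 over the members and -0.0026 over all tested genes, and without model B the members' median was 0.23.

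Single genes were counted in the same way. An unadjusted p under 0.05 with a higher value in GFP+ cells was reached by 13 members (37.1%), against 5.58% of all tested genes. With a lower value it was reached by 0 members, against 3.56% of all tested genes. Leaving out model B left 8 of those 13 at that level, and leaving out model D left 9. With a model left out, the share over all tested genes was not counted. In all 5 pairs, 12 members were higher in GFP+ cells (34.3%), against 4.98% of all tested genes. Only Bard1 had every GFP+ library above every GFP- library, which is 2.86% of the members against 0.124% of all tested genes. DESeq2 with the same design called 2 members higher in GFP+ cells (5.71%), against 1.11% of its 14096 genes. These were Rad51ap1 (adjusted p = 0.021 by DESeq2) and Clspn (adjusted p = 0.039 by DESeq2), and DESeq2 called 211 genes in all.

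The gap between the populations was graded over the models, from B, where it was widest, through D and C to E and A. In pair B, 31 of 35 members were higher in the GFP+ library, with a median log2 difference of 0.96. In pair D, 29 members were higher, with a median of 0.54. In pair C, 27 members were higher, with a median of 0.29. In pair A, 16 members were higher and the median was -0.033, and in pair E, 20 members were higher and the median was 0.072.

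A difference of more than 2-fold in favour of the GFP+ library was found for 16 members in pair B (45.7%, against 6.94% of all tested genes) and for 9 in pair D (25.7%, against 4.5%). It was found for 2 members in pair C (5.71%, against 3.54%). None of the 35 passed it in pair A, where 5.8% of all tested genes did, or in pair E, where 6.58% did. No member was more than 2-fold lower in the GFP+ library of any pair. In the plot of pair differences, pair B was highest for most of the genes at the top. The order of the other models varied between those genes. For Bard1, for example, pair E (0.997) lay above pair D (0.869).

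**Figure D1:**
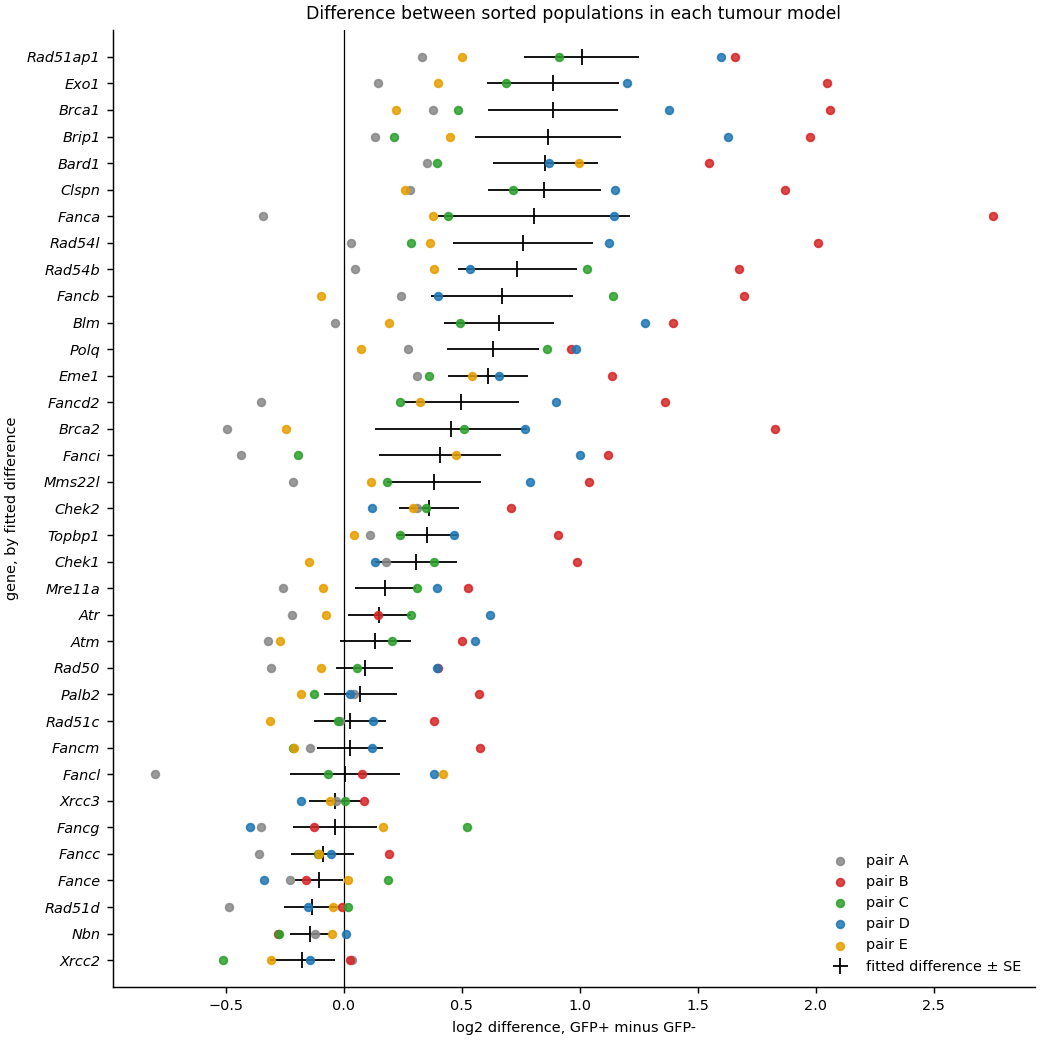
Log2 difference between the GFP+ and GFP- library of each model (coloured points, computed with a prior count of 2) and the fitted difference with its standard error (black tick and bar) for the 35 genes, sorted by the fitted difference. Pair B lies farthest to the right for most genes above Atm, Fanca in pair B reaches 2.75, and the 7 genes at the bottom have fitted differences below 0.

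The GFP- libraries were spread more widely in their sums. Summed over the 35 genes, the GFP+ libraries held 632, 798, 630, 684 and 743 CPM, and the GFP- libraries held 649, 460, 530, 484 and 725 CPM. GFP- B and GFP- D had the lowest sums, and GFP- A and GFP- E lay within the GFP+ range. The means were 697 ± 72.9 and 570 ± 113 CPM (SD, n = 5 each). The lowest of the 10 libraries was GFP- B for 12 members, GFP- C for 8 and GFP- D for 6. The highest was GFP+ B for 12 members and GFP+ E for 9. The same counts over all tested genes were not made. For single genes the log2 SD was larger among the GFP- libraries in 20 of 35 members, and over all tested genes this held for 62.9%.

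**Figure D2:**
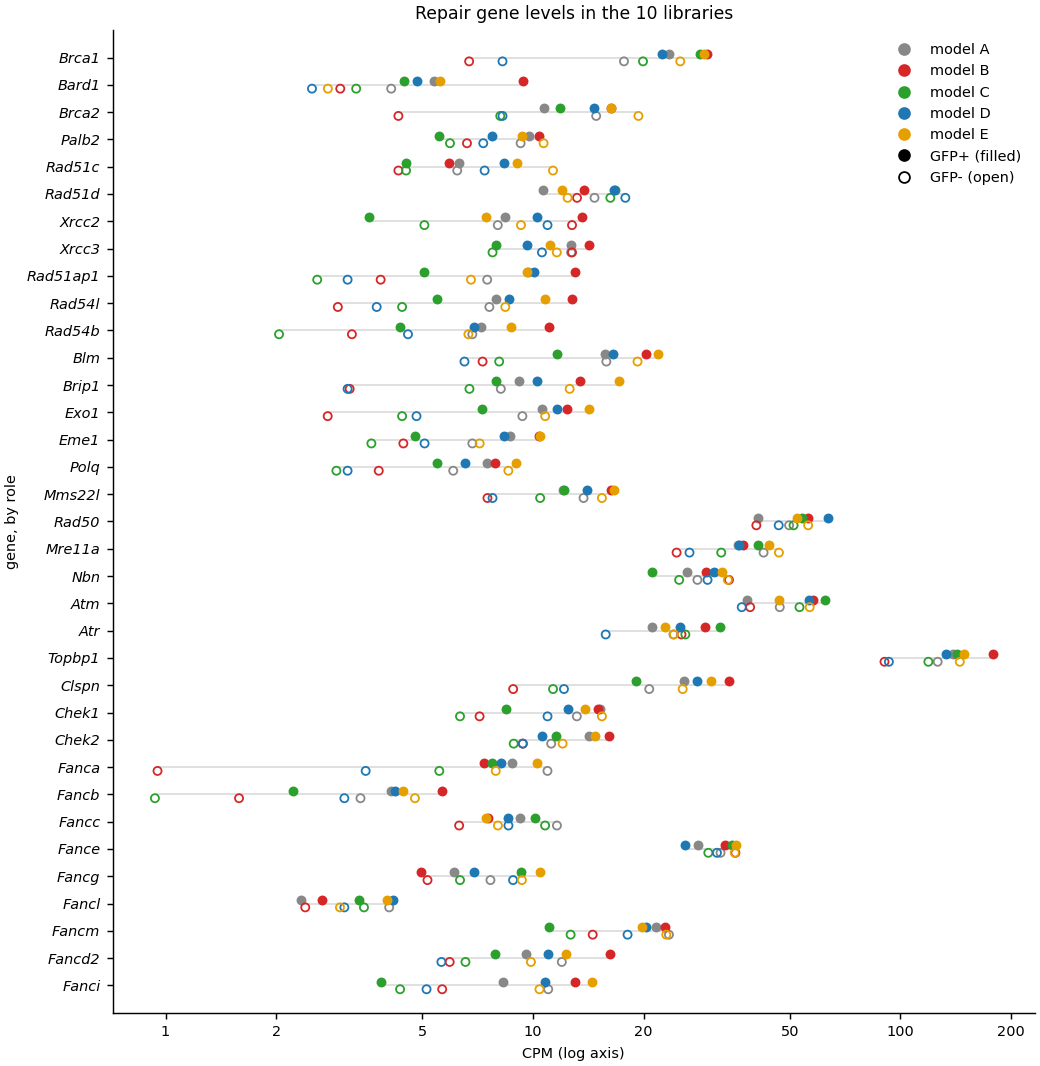
CPM of each of the 35 genes in the 10 libraries (log axis), with filled points for GFP+ and open points for GFP-, coloured by model, the genes ordered by role. The open red and blue points of GFP- B and GFP- D lie at the left for Brca1 and Blm. Topbp1 lies farthest to the right, between 90.5 and 178 CPM.

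BRCA1 and BARD1 form a ubiquitin ligase that acts at DNA ends, PALB2 links BRCA1 to BRCA2, and BRCA2 acts on the resected DNA. All 4 genes had fitted log2 differences above 0, between 0.07 and 0.89, and Brca1 and Bard1 were below an unadjusted p of 0.05. Brca1 (ENSMUSG00000017146, chr11:101488764-101551955, minus strand) stood at 23.5, 29.7, 28.4, 22.4 and 29.2 CPM in GFP+ and at 17.7, 6.70, 19.9, 8.26 and 25.2 CPM in GFP- libraries. The GFP+ libraries lay close together, GFP- B and GFP- D were far below them, and only GFP- E reached into their range. The fitted log2 difference was 0.89 (SE 0.27; adjusted p = 0.42 by edgeR), with higher values in 5 of 5 pairs (sign-flip test over the pairs, exact p = 0.063, the lowest possible with 5).

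Bard1 (ENSMUSG00000026196, chr1:71027498-71103146, minus strand) stood at 5.39, 9.37, 4.45, 4.83 and 5.60 CPM in GFP+ and at 4.11, 2.99, 3.30, 2.50 and 2.77 CPM in GFP- libraries. The populations did not overlap, and GFP+ B was far above the others. Its fitted log2 difference was 0.85 (SE 0.22; adjusted p = 0.355 by edgeR). Brca2 (ENSMUSG00000041147, chr5:150522630-150570329, plus strand) stood at 10.7, 16.3, 11.8, 14.6 and 16.3 CPM in GFP+ and at 14.9, 4.30, 8.15, 8.26 and 19.4 CPM in GFP- libraries. Here GFP- E was the highest of all 10 libraries and GFP- B the lowest. GFP- B, GFP- C and GFP- D lay below every GFP+ library, and GFP- A lay within the GFP+ range. Its fitted log2 difference of 0.46 (SE 0.32; adjusted p = 0.719 by edgeR) became 0.14 without model B and 0.70 without model A. Palb2 was within 5.54 to 10.7 CPM in all libraries, with a fitted log2 difference of 0.07 (SE 0.15).

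The genes of 3 proteins that promote strand pairing had values that were higher in GFP+ cells in all 5 pairs. They are Rad51ap1, which stimulates strand pairing, and the translocases Rad54l and Rad54b, which move along DNA. Rad51ap1 (ENSMUSG00000030346, chr6:126923050-126939587, minus strand) had the smallest p of the 35 genes. It stood at 9.67, 13.0, 5.05, 10.04 and 9.60 CPM in GFP+ and at 7.51, 3.85, 2.59, 3.13 and 6.78 CPM in GFP- libraries. Only GFP+ C fell among the GFP- libraries, below GFP- A and GFP- E. The fitted log2 difference was 1.01 (SE 0.24; adjusted p = 0.335 by edgeR), and the pair differences averaged 1.00 ± 0.61 (SD, n = 5 pairs) on the log2 scale. Rad54l and Rad54b had fitted log2 differences of 0.76 (SE 0.30) and 0.74 (SE 0.25). That of Rad54l became 0.46 without model B. The locus of Rad54l also held 5125 reads on the opposite strand, against 1373 on its own.

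Rad51c, Rad51d, Xrcc2 and Xrcc3, whose proteins form complexes that act in recombination, had differences between the populations near 0. Fitted log2 differences were -0.18 for Xrcc2, -0.14 for Rad51d, -0.04 for Xrcc3 and 0.03 for Rad51c, and none was below an unadjusted p of 0.05. Without model C, that of Xrcc2 was -0.10. Rad51d (ENSMUSG00000018841, chr11:82876434-82890614, minus strand) stood at 10.7, 13.7, 16.7, 16.6 and 12.0 CPM in GFP+ and at 14.7, 13.2, 16.2, 17.8 and 12.4 CPM in GFP- libraries. The ranges coincided over most of their length, and pair A had the widest gap, -0.49 on the log2 scale. Its fitted log2 difference of -0.14 (SE 0.12; adjusted p = 0.783 by edgeR) became -0.05 without model A. Xrcc2, Xrcc3 and Rad51c are given with the models below.

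Helicases and nucleases formed the group with the most members below an unadjusted p of 0.05, namely all 4 of Blm, Brip1, Exo1 and Eme1. Blm is a RecQ helicase that dissolves joined chromatids, Brip1 a helicase that binds BRCA1, Exo1 an exonuclease that resects DNA ends, and Eme1 the partner of the MUS81 nuclease. Blm (ENSMUSG00000030528, chr7:80454733-80535119, minus strand) stood at 15.7, 20.3, 11.6, 16.5 and 21.9 CPM in GFP+ and at 15.8, 7.29, 8.09, 6.51 and 19.3 CPM in GFP- libraries. GFP- B, GFP- C and GFP- D lay below every GFP+ library, and GFP- A and GFP- E lay within the GFP+ range. The fitted log2 difference was 0.66 (SE 0.24; adjusted p = 0.471 by edgeR), with higher values in 4 of 5 pairs.

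Eme1 (ENSMUSG00000039055, chr11:94644996-94653964, minus strand) stood at 8.67, 10.4, 4.78, 8.34 and 10.4 CPM in GFP+ and at 6.84, 4.44, 3.63, 5.07 and 7.16 CPM in GFP- libraries. Apart from GFP+ C, every GFP+ library lay above every GFP- library. Its fitted log2 difference was 0.61 (SE 0.17; adjusted p = 0.372 by edgeR), and the pair differences averaged 0.60 ± 0.33 (SD, n = 5 pairs) on the log2 scale. The Eme1 locus held 2929 reads on the opposite strand, against 1317 on its own. Exo1 and Brip1 had fitted log2 differences of 0.89 (SE 0.28) and 0.87 (SE 0.31), and in pair B their differences were 2.05 and 1.98. Polq, the polymerase of end joining by microhomology, had 0.63 (SE 0.20), with higher values in 5 of 5 pairs. Mms22l, which acts with TONSL at stalled forks, had 0.38 (SE 0.20), and 0.23 without model B.

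The sensors of broken ends showed little difference. MRE11, RAD50 and NBN form the complex that binds ends and activates the ATM kinase, and ATR is the kinase of single-stranded DNA. Fitted log2 differences of the 5 genes lay between -0.14 and 0.18, none below an unadjusted p of 0.05. Atm (ENSMUSG00000034218, chr9:53439149-53536740, minus strand) stood at 38.3, 57.9, 62.2, 56.3 and 46.7 CPM in GFP+ and at 46.9, 39.0, 53.1, 37.0 and 56.6 CPM in GFP- libraries. The direction differed between models, with GFP+ above GFP- in B, C and D and below it in A and E. The fitted log2 difference was 0.13 (SE 0.15; adjusted p = 0.844 by edgeR), and it lay between 0.03 without model D and 0.24 without model A. Mre11a, Rad50 and Atr had the same directions in the 5 pairs as Atm.

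Of the checkpoint genes, Clspn, Chek2 and Topbp1 were higher in GFP+ cells in 5 of 5 pairs, and Chek1 in 4. TOPBP1 activates ATR, CLSPN carries its signal to the kinase CHEK1, and CHEK2 is the kinase downstream of ATM. Clspn (ENSMUSG00000042489, chr4:126556935-126593903, plus strand) stood at 25.7, 34.2, 19.1, 28.0 and 30.5 CPM in GFP+ and at 20.7, 8.83, 11.3, 12.1 and 25.5 CPM in GFP- libraries. GFP- B, GFP- C and GFP- D were below every GFP+ library, while GFP- A and GFP- E were above GFP+ C. The fitted log2 difference was 0.85 (SE 0.24; adjusted p = 0.372 by edgeR). Chek2 and Topbp1 had smaller differences of 0.36 (SE 0.13) and 0.35 (SE 0.13), of which that of Topbp1 became 0.23 without model B. Chek1 had 0.31 (SE 0.17), and 0.15 without model B.

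The Fanconi core complex had no common direction, with 4 of its 7 genes fitted above 0 and 3 below. Fance (ENSMUSG00000007570, chr17:28313519-28326572, plus strand), which joins the core to FANCD2, stood at 28.2, 33.3, 34.8, 25.9 and 35.7 CPM in GFP+ and at 32.4, 35.5, 30.0, 31.7 and 35.4 CPM in GFP- libraries. Fancc (ENSMUSG00000021461, chr13:63285043-63497278, minus strand), its partner in the core, stood at 9.22, 7.56, 10.2, 8.55 and 7.43 CPM in GFP+ and at 11.6, 6.29, 10.8, 8.57 and 8.03 CPM in GFP- libraries. Both genes overlapped over most of their range, with fitted log2 differences of -0.10 (SE 0.10) for Fance and -0.09 (SE 0.13) for Fancc. That of Fance lay between -0.18 without model C and -0.05 without model D, and that of Fancc was -0.02 without model A and -0.15 without model B.

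Fanca and Fancb, core subunits chosen for description after their values were seen, had the largest fitted differences of the core. Fanca (ENSMUSG00000032815, chr8:123268300-123318576, minus strand) stood at 8.78, 7.35, 7.71, 8.17 and 10.3 CPM in GFP+ and at 10.9, 0.951, 5.56, 3.50 and 7.92 CPM in GFP- libraries. GFP- B, with 21 reads, was far below every other library, and GFP- A was the highest. The fitted log2 difference of 0.81 (SE 0.41) became 0.41 without model B. The Fanca locus also held 1993 reads on the opposite strand, against 1337 on its own. Fancb had 0.67 (SE 0.30), and 0.41 without model B. Fancb lies on the X chromosome, and Xist, the RNA of the inactive X, was at 0.111, 1049, 724, 103 and 567 CPM in GFP+ and at 0.0514, 523, 615, 2.82 and 565 CPM in GFP- libraries. Its level differed within pairs B and D, and its part in the Fancb values was not tested. Fancg, Fancl, the ligase subunit, and Fancm, the translocase that anchors the core to DNA, had fitted log2 differences of -0.04, 0.0064 and 0.03, and the Fancl locus held 526 reads on the opposite strand, against 612 on its own.

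FANCD2 and FANCI form the clamp that the core complex modifies. Fancd2 (ENSMUSG00000034023, chr6:113531682-113597017, plus strand) stood at 9.56, 16.2, 7.88, 11.0 and 12.3 CPM in GFP+ and at 12.0, 5.93, 6.55, 5.63 and 9.87 CPM in GFP- libraries. GFP+ B was the highest library, and GFP- A lay above 3 of the GFP+ libraries. The fitted log2 difference was 0.50 (SE 0.25; adjusted p = 0.595 by edgeR), and 0.29 without model B. For Fanci it was 0.41 (SE 0.26), with 0.62 without model A, 0.23 without model B and 0.26 without model D. The Fanci locus held 2042 reads on the opposite strand, against 1653 on its own.

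The other gene lists set these values in their surroundings. The 30 mitosis genes all had fitted differences above 0, with a median log2 difference of 0.73, and 26 were below an unadjusted p of 0.05. Prc1, which bundles spindle microtubules, had the smallest p among them and averaged 66.3 ± 23.1 CPM over the GFP+ and 29.2 ± 10.9 over the GFP- libraries (SD, n = 5 each; log2 difference 1.14, SE 0.20; adjusted p = 0.209 by edgeR). Of the 38 replication fork genes, 36 were fitted above 0, 9 were below an unadjusted p of 0.05 and the median was 0.35, close to that of the 35 repair genes. Gins3, a subunit of the replicative helicase, had a log2 difference of 0.65 (SE 0.20), and Chaf1a, a chaperone that places histones behind the fork, had 0.43 (SE 0.13).

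The other repair lists lay nearer to 0. The 54 other homologous recombination and Fanconi genes divided into 29 above and 25 below 0, with a median of 0.02. At an unadjusted p under 0.05 they gave 5 higher and 1 lower, and the smallest p values belonged to BC030867 (0.76, SE 0.25), also called Hrob, which acts with a helicase of recombination, and Parpbp (0.61, SE 0.20), an inhibitor of recombination. The 21 damage signalling genes had a median of 0.12, with 2 higher at that level, Wee1 (0.47, SE 0.15), an inhibitory kinase of the cell cycle, and H2afx (0.41, SE 0.16), the histone marked at breaks. The medians were 0.03 over 15 end joining genes, 0.01 over 7 mismatch repair genes and 0.0057 over 36 excision repair genes. No gene of any of these lists passed the adjusted threshold.

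The order of the models was shared by the members and the lists of dividing cells. In pairs A to E the mean log2 differences were -0.07, 0.96, 0.29, 0.56 and 0.12 over the members. They were -0.14, 1.02, 0.21, 0.59 and 0.11 over the replication fork genes and 0.03, 1.71, 0.48, 1.22 and 0.47 over the mitosis genes. For each of these 3 lists, pair B was highest, pair D next and pair A lowest. The other recombination and Fanconi genes gave -0.06, 0.27, 0.01, 0.20 and 0.01. They too had pair B highest, pair D next and pair A lowest, over a smaller range. The part of replication and mitosis genes in the members' differences was not tested.

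**Figure D3:**
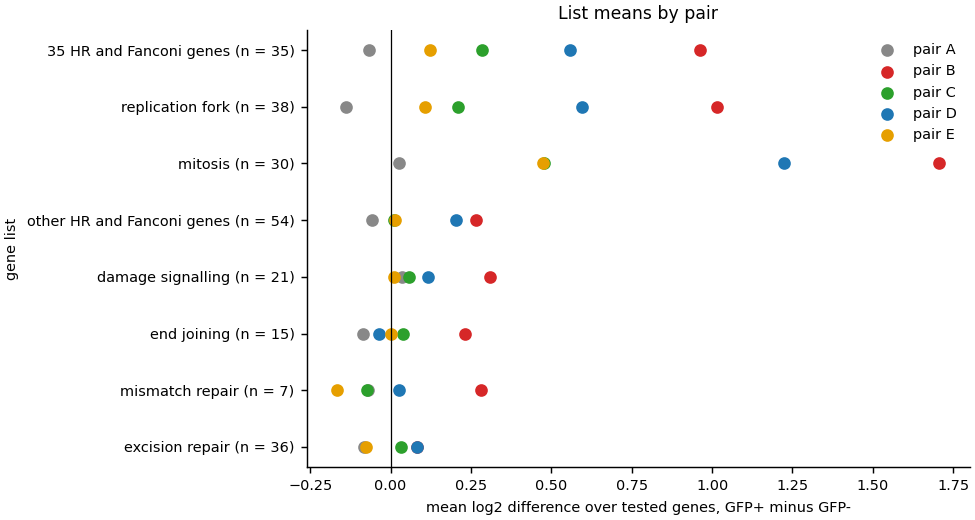
Mean log2 difference, GFP+ minus GFP-, over the tested genes of each list in each of the 5 pairs (points coloured by model; computed with a prior count of 2). The 35 genes and the replication fork genes spread alike, from -0.07 to 0.96 and from -0.14 to 1.02, the mitosis genes reach 1.71, and the 5 lists below them reach at most 0.31.

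Differences among the 5 tumours were tested in the same fit, by the 4 model coefficients together. edgeR called 53.8% of all tested genes at an adjusted p under 0.05 and 4 of the 35 members (11.4%), namely Xrcc2, Rad51c, Xrcc3 and Nbn. This test sets the differences among models against the spread of the within-model differences, and the 2 libraries of a model are not independent replicates of it. The median F statistic was 2.82 over the members and 5.58 over all tested genes. The ratio of the highest to the lowest model mean ranged from 1.21 to 3.05 over the members, with a median of 1.78, against a median of 2.01 over all tested genes. Model E had the highest mean for 23 of the 35 members, and model C the lowest for 19. This was not counted over all tested genes.

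All 4 of these genes had their lowest model mean in model C. Xrcc2 (ENSMUSG00000028933, chr5:25689812-25705825, minus strand) had the smallest p of this comparison and stood at 8.39, 13.6, 3.58, 10.3 and 7.43 CPM in GFP+ and at 8.02, 12.8, 5.06, 11.0 and 9.27 CPM in GFP- libraries. Both libraries of B were above, and both libraries of C below, all others (adjusted p = 0.0072 by edgeR). The model means ran from 4.32 CPM in C to 13.2 CPM in B, a 3.05-fold range. Rad51c (ENSMUSG00000007646, chr11:87376645-87404954, minus strand) stood at 6.28, 5.91, 4.51, 8.34 and 9.07 CPM in GFP+ and at 6.22, 4.30, 4.51, 7.38 and 11.3 CPM in GFP- libraries. Both libraries of E were the highest, and those of C, with GFP- B, the lowest (adjusted p = 0.0177 by edgeR).

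Xrcc3 (ENSMUSG00000021287, chr12:111803192-111813873, minus strand) stood at 12.7, 14.2, 7.93, 9.65 and 11.1 CPM in GFP+ and at 12.7, 12.8, 7.76, 10.6 and 11.6 CPM in GFP- libraries. Model C was again the lowest in both populations (adjusted p = 0.0398 by edgeR), and the Xrcc3 locus held 1705 reads on the opposite strand, against 2100 on its own. Nbn (ENSMUSG00000028224, chr4:15957925-15992589, plus strand) stood at 26.3, 29.5, 21.0, 31.1 and 32.6 CPM in GFP+ and at 28.0, 34.1, 25.0, 29.9 and 33.9 CPM in GFP- libraries. Both libraries of C lay below the other 8 (adjusted p = 0.0488 by edgeR), and its fitted log2 difference between populations was -0.14 (SE 0.09). With model C left out, 0 members were called among the remaining models by edgeR, with model E left out 1, and with model B left out 12. Over all genes, the same fits called 4353 without C, 5822 without E and 7187 without B, against 8215 with all 5 models. DESeq2 called 10 members, where it called 58% of all tested genes. At an unadjusted p under 0.05, edgeR gave 9 members, and 62.7% of all tested genes.

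**Figure D4:**
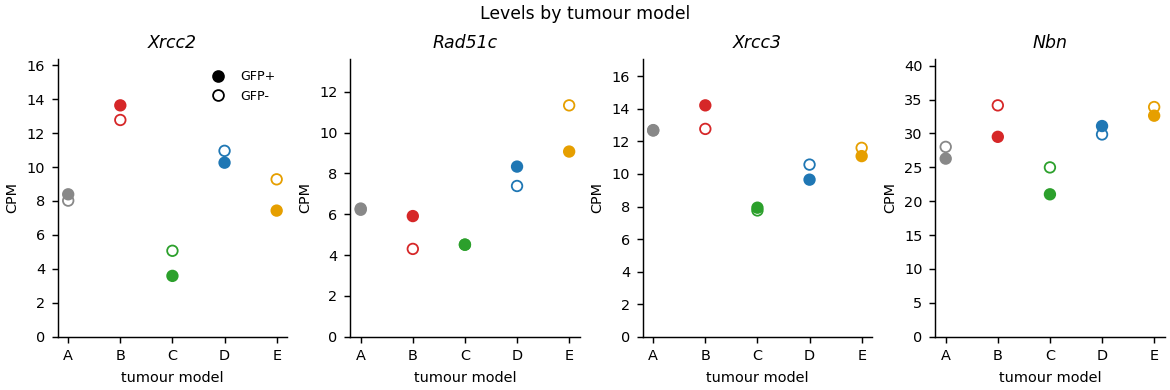
CPM of Xrcc2, Rad51c, Xrcc3 and Nbn in the GFP+ (filled) and GFP- (open) library of each tumour model, with each axis starting at 0. In each panel both points of model C lie at or near the bottom, and the points of a model lie close together compared with the range over models, 3.05-fold for Xrcc2.

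Levels can be set between genes only per length, as CPM per kilobase of annotated exon, averaged over the 10 libraries. On that scale Topbp1 (11.7), Nbn (11.5), Fance (10.1) and Rad50 (9.51) were the most abundant, and their ranges over the libraries overlapped. Mre11a (6.20) and Atm (4.78) followed. Brca1 stood at 2.47, Rad51c at 1.55, Blm at 1.63, Fancd2 at 1.22 and Brca2 at 0.914. Bard1 (0.801) and Polq (0.628) were the lowest, with overlapping ranges. Of the 13 genes below an unadjusted p of 0.05 between the populations, Topbp1 alone was among the 6 most abundant.

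The sequences before the start sites were examined because 13 of the 35 genes had higher values in GFP+ cells at an unadjusted p under 0.05. RefSeq windows on GRCm38.p6 were matched by symbol for 28 members, and the 250 bases before the start were searched on both strands. Some windows, such as those of Fancc, Fancl, Chek1 and Fanci, lay inside the GENCODE span of the gene and were counted like the others. A core of the site of E2F factors, which control genes of DNA replication, was taken as TTGGCGC or TTCGCGC or TTCCCGC or TTGCCGC. It was found for 9 of 28 members (32.1%), namely Brca2, Bard1, Rad51c, Blm, Chek2, Fancb, Fancg, Fancm and Topbp1, against 9.01% of 27025 genes. The 27025 are all genes with a window, whether or not they had enough reads to be tested here. The share over the tested genes alone was not counted. The median GC content of the searched bases was 58.6% for the members and 52.4% for all windows, and no comparison at equal GC content was made. The 4 genes printed first are those of the 13 with a match, and Rad51ap1 and Brca1 follow as genes of the 13 without one. Each is the longest stretch outside annotated exons, read in the direction of the gene, with the match in capitals.

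Bard1: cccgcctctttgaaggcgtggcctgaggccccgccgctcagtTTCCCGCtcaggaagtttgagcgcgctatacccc
Topbp1: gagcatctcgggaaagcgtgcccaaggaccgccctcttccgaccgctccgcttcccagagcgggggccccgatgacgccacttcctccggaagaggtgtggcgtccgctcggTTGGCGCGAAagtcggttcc
Chek2: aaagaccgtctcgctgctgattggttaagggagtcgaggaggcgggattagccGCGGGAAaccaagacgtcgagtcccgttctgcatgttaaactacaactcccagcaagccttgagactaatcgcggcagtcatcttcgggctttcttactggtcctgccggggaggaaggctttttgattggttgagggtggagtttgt
Blm: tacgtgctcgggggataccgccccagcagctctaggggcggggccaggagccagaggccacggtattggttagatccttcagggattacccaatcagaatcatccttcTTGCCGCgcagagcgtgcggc
Rad51ap1: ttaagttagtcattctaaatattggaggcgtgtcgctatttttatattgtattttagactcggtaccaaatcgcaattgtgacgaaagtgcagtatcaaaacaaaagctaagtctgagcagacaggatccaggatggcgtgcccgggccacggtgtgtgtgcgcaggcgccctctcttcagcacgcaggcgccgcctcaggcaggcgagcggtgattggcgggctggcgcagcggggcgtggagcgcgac
Brca1: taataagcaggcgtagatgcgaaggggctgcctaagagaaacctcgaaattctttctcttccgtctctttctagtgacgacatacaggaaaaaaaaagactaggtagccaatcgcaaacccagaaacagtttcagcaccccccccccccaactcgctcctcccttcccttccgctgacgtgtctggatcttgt

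These stretches lie at chr1:71103147-71103222 (minus strand) for Bard1, chr9:103305083-103305214 (plus strand) for Topbp1, chr5:110839778-110839978 (plus strand) for Chek2, chr7:80535120-80535248 (minus strand) for Blm, chr6:126939588-126939837 (minus strand) for Rad51ap1 and chr11:101551956-101552148 (minus strand) for Brca1. The longer capitals of Topbp1 are 2 matches on opposite strands that overlap. Of the 13 genes, 11 had a window and 4 of them a match, and of the other members 17 had a window and 5 a match. The fitted log2 difference between the populations had a median of 0.36 over the 9 genes with a match (range -0.04 to 0.85) and 0.38 over the 19 without (range -0.10 to 1.01). Rad51ap1, with the largest difference, held no match in its window.

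Of the elements of cell cycle promoters, the CHR element was sought by its letters TTTGAA. These were found before 2 members (7.14%), Bard1 and Polq, against 18.3% of all genes with a window. The letters CCAAT, of the box bound by NF-Y, were found before 15 members (53.6%), against 37.5% of all genes with a window. Members with CCAAT had a median log2 difference of 0.66 (range -0.10 to 1.01), and the 13 without it 0.35 (range -0.04 to 0.85). A match is a description of letters in this window and not evidence of binding.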

How the data were processed

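Total RNA of 10 sorted populations was sequenced. The submitters' processing notes name STAR 2.4.2.8 and mm10. Nothing in the sources used here names the annotation, library kit or strand setting. Raw read counts by gene were deposited, in tables with columns for unstranded counts and for each strand. The second-strand counts were used, since they took 96.9% to 97.1% of stranded gene reads. Multiply mapped reads (5.99% to 9.74%) stand on a line of their own, so genes with near-identical copies are uncertain, and 4 summary lines (21.3% to 24.3% of reads) were left out. Symbols and coordinates came from GENCODE vM21 (46005 of 46517 identifiers matched). No library was identical to another.

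Genes were filtered with filterByExpr (15282 kept), scaled by TMM (factors 0.970 to 1.037) and tested with edgeR 4.0.16 (R 4.3.3), by the quasi-likelihood test with tumour model as a block, two-sided, Benjamini-Hochberg adjusted over all tested genes. The letters pair the libraries, since both populations of a letter come from the same model. Deviations from population means correlated at 0.622 to 0.854 within pairs, always more than with any other model. Single pair differences were taken from log2 CPM (prior count 2) and tested by exact sign flips.

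All 10 CPM values are given for the 5 members with the smallest p in each direction, the 4 with the smallest p among models, and Brca1, Brca2, Fancd2, Atm, Rad51c and Blm. Fanca was added after its values were seen. Of the comparison lists of repair, replication and mitosis genes, at most 2 genes are named, by p, and cell type markers were named after their values were seen. The members and lists were chosen with earlier results of these data known. Alternatives were no block, RLE size factors, library totals, no filter, a stricter filter (1 CPM in 5 libraries), DESeq2 1.42.0, unstranded counts and leaving out each model. Reads of the transgene were not analysed here.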

Additional observations from a re-analysis of the deposited data

Results flagged for a closer look

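Of 105 groups of 5 values examined, 3 had a library far from the other 4, where chance alone gives about 1 in 20. Bard1 stood at 9.37 CPM in GFP+ B, with the other GFP+ libraries between 4.45 and 5.60 CPM. Atr stood at 15.8 CPM in GFP- D, with the other GFP- libraries between 24.1 and 26.0 CPM. Fancm stood at 11.1 CPM in GFP+ C, with the other GFP+ libraries between 19.8 and 22.8 CPM, and GFP- C was also the lowest of its population at 12.7 CPM.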

How the results depend on the processing

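Without the block, 3 members instead of 13 were higher at an unadjusted p under 0.05, and 8 to 17 were when 1 model was left out, 8 without model B. For these alternatives the share over all tested genes was not counted. Genes called between the populations numbered 47 with no filter and 211 by DESeq2, of which 2 were members, and 0 in the other alternatives. Among models, 8215 genes became 4353 to 7975 with 1 model left out (4353 without C), and 4 members became 10 by DESeq2 and 0 to 12 with 1 model left out. The median log2 difference of the members lay between 0.23 (without model B) and 0.43. Of 420 values of single members under the alternatives, 11 reversed their sign, in 6 members whose fitted differences were near 0. Rad51c gave -0.014 without the block, Xrcc3 0.053 with unstranded counts and Fancl -0.0080 with no filter. With 1 model left out, Palb2 ranged from -0.047 to 0.14, Rad51c from -0.049 to 0.12, Xrcc3 from -0.054 to 0.0014, Fancg from -0.18 to 0.056, Fancl from -0.10 to 0.21 and Fancm from -0.10 to 0.094. The cause was not tested. Counting error bears most on the lowest counts, 17 reads of Fancb and 21 of Fanca in 1 library each.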
